A study of Mus musculus with 6 samples.

Results

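Pericytes 1 are the cells to which the deposited annotation gives the type Pericyte 1, here 1376 of 61839 cells (2.23%) in 34 types. All of them came from 1 of the deposited high-resolution clusters, and no measured value was used to choose them beyond that annotation. The study dissociated whole lungs of C57BL/6 mouse pups kept from birth in room air (21% O2, normoxia) or in 85% O2 (hyperoxia), an exposure that arrests formation of alveoli and serves as a model of bronchopulmonary dysplasia. Lungs were taken at postnatal day 3 (P3), day 7 (P7) and day 14 (P14), with 6 mice in each of the 6 groups of age and oxygen. Both sexes were used, unequally at P3 and P7, which the study names as a limitation, and sex was not a term here. All mice were of this strain with no transgene or deletion named, the nursing dams were rotated between the cages, and the group of a cell was read from the barcoded tag of its mouse, since each of the 6 libraries held cells of several mice. The questions asked of Pericytes 1 were how they differ from Pericytes 2, the second type of that name, how they change as the normal lung matures, and how they respond to hyperoxia.

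Pericytes are mural cells that lie within the basement membrane of capillaries and small vessels. They depend on PDGF-B from endothelial cells, which acts on the receptor encoded by *Pdgfrb*, and they stabilise the vessel wall and can contract, which makes them a regulator of vessel calibre. Where they cover arterioles they grade into vascular smooth muscle, which carries more of the contractile proteins (actin, myosin heavy chain, calponin) and deposits elastin. In the growing lung, the mural coat follows the capillary network as it is remodelled.

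A mouse gave 1 to 83 Pericytes 1. Expression was compared over mice, as the UMI counts (counts of distinct captured transcripts) summed over a mouse's Pericytes 1, and values per mouse are scaled to a sum of 1000000 per mouse (CPM). The 35 mice with at least 10 such cells entered, with summed counts of 52402 to 561649 UMIs and a median of 201981; the hyperoxic P7 mouse left out had 1 such cell. Of 61441 cell barcodes, 394 occurred in more than 1 library, and 0 of the 1376 Pericytes 1 barcodes did so among Pericytes 1. In 51 of the 1376 cells a sample tag other than the assigned one had the higher count, against 1808 of all 61839 cells. RNA of other cell types was found in these sums. The 8 epithelial markers, none of them at 0 over all cells and led by the club cell protein gene *Scgb1a1*, summed to 1288 to 30297 CPM in normoxia (median 1622) and to 973 to 4569 CPM in hyperoxia (median 1487), the highest sum in a normoxic P3 mouse. The 5 red cell markers reached 6042 CPM in a normoxic P7 mouse, with a median of 24.0 over normoxic mice. The 8 endothelial markers summed to at most 233 CPM in any mouse, and the 8 immune markers to at most 519; the highest endothelial marker, *Egfl7*, stood at 19.5 CPM.

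The label was checked against its markers. *Pdgfrb* (the PDGF-B receptor), *Cspg4* (the proteoglycan NG2) and *Sod3* (extracellular superoxide dismutase) were all found, at 317, 142 and 147 CPM in the pooled cells of the type, the second, second and first highest level of the 34 types. In Pericytes 2 they stood at 1646, 391 and 7.53 CPM. *Sod3* was next highest in the type deposited as Myofibroblast (119 CPM) and in *Col14a1*+ fibroblasts (116 CPM). *Pdgfra*, a fibroblast marker, was at 4.90 CPM, against 239.6 CPM in the type deposited as SMC. The most abundant of the genes examined were of another kind. *Acta2* (smooth muscle actin), on chr19:34241090-34255590 (minus strand, GRCm38), reached 11012 CPM, the second highest level of the 34 types after the 15114 CPM of the type deposited as Myofibroblast. *Eln* (elastin), on chr5:134702593-134747323 (minus strand), had a mean of 16121 ± 5098 CPM (SD, n = 35 mice), above its mean in each of the other 5 stromal types. The next highest mean, in SMC, was 8847 ± 11880 CPM. Single mice ran from 653 to 42348 CPM in SMC and from 7187 to 27873 CPM in Pericytes 1. Over 8764 genes the log profile of the pooled cells correlated with that of the deposited Myofibroblast type at Pearson's r of 0.918 and with SMC at 0.916. *Col14a1*+ fibroblasts followed at 0.899 and Pericyte 2 at 0.886. The values are a description across genes of pooled cells that share libraries. These names are the deposited ones: of the 6 stromal types SMC had the highest mean *Pdgfra* over mice (237 CPM) and Myofibroblast the lowest (1.74 CPM), with the highest *Acta2*, *Tagln*, *Myh11*, *Des* and *Cnn1*, so that a likeness to either is one to the cells that carry the name. Of other pericyte genes, *Mcam*, *Ebf1*, *Itga1*, *Cox4i2* and *Higd1b* came second to Pericytes 2 among the 6 stromal types. Against that, *Kcnj8* was lowest of the 6 in Pericytes 1 (mean 6.65 CPM). *Abcc9* (23.6 CPM) stood above *Col13a1*+ fibroblasts alone, and *Art3* (10.9 CPM) below Pericytes 2 and Myofibroblast. The cells carried the 3 named markers, and the genes with the highest levels among those examined were contractile and elastic. The deposited name is kept below for what the annotation calls them.

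**Figure D1:**
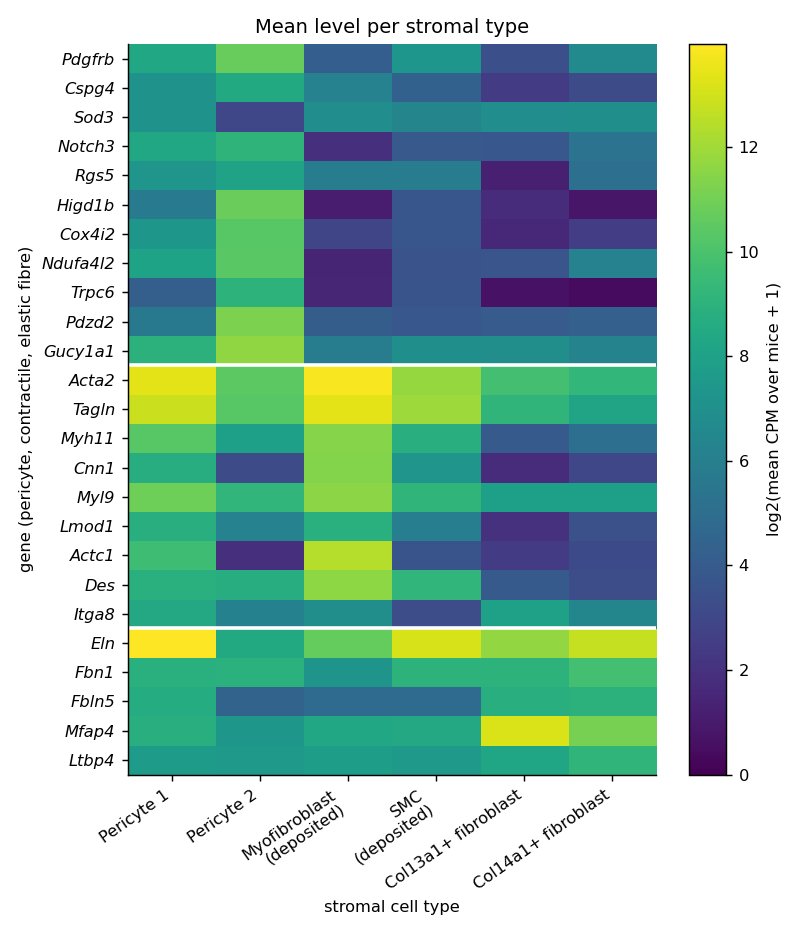
Mean level of 25 genes in the 6 stromal types, as log2(mean CPM over mice + 1), with pericyte genes at the top, contractile genes in the middle and elastic fibre genes at the bottom. Pericytes 1 (left column) show the strongest colour of the 6 types for *Eln* and come second to the deposited Myofibroblast type for *Acta2* and *Tagln*, while Pericytes 2 (second column) stand highest for *Pdgfrb*, *Higd1b*, *Trpc6*, *Pdzd2* and *Gucy1a1*.

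The contrast with Pericytes 2 (1026 cells) was read within the 29 mice that had at least 10 cells of both types, as the difference of log2(CPM + 10). The types were defined by clustering on these same genes, so the differences describe the types and were not tested. Among the 2155 genes with a mean of at least 100 CPM in either type, 230 were higher in Pericytes 1 by more than 1 on the log2 scale and 289 lower. The largest median differences towards Pericytes 1 were those of *Actc1* (cardiac actin, 6.32), *Eln* (6.08), *Igfbp5* (an IGF-binding protein, 5.89), *Pi15* (5.41), *Mustn1* (4.92), *Cxcl12* (the chemokine SDF-1, 4.92), *Map1b* (4.88), *Cnn1* (calponin, 4.87), *Pcdh7* (4.66) and *Ramp1* (a subunit of the CGRP receptor, 4.58). Towards Pericytes 2 they were those of *Pdzd2* (-5.23), *Hsd11b1* (which regenerates active glucocorticoid, -5.20), *Higd1b* (-5.08), *Gap43* (-4.85), *Fam162b* (-4.80), *Car2* (carbonic anhydrase, -4.77), *Trpc6* (a cation channel, -4.68), *Cadm1* (-4.68), *Pcdh18* (-4.43) and *Clstn2* (-4.42). Each of these 20 genes, picked for the size of the difference, kept its direction in 29 of 29 mice. Among all 2155 genes, 209 were higher and 224 lower in every mouse. The sizes were large: *Eln* stood at 16279 ± 5367 CPM in Pericytes 1 and 361 ± 360.1 CPM in Pericytes 2, and *Actc1* at 839 ± 431 CPM in Pericytes 1 and 2.73 ± 6.89 CPM in Pericytes 2.

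By function, the contrast ran between contraction and elastic matrix on one side and pericyte and cyclic nucleotide genes on the other. Counts by list stand beside 230 of all 2155 genes higher in Pericytes 1 by more than 1 and 289 lower. In every mouse, 209 of the 2155 were higher and 224 lower. Of 21 contractile genes with enough signal, 13 were higher in Pericytes 1 by more than 1 and none lower, with a median difference of 1.75 against -0.15 for all 2155 genes. *Acta2* stood at 10665 ± 2131 CPM in Pericytes 1 and 1400.3 ± 942 CPM in Pericytes 2. *Myh11*, the smooth muscle myosin heavy chain, stood at 1292 ± 697 CPM in Pericytes 1 and 239 ± 80.9 CPM in Pericytes 2. *Des* (desmin) was nearly level between the types, at 482 and 419 CPM. Of 10 elastic fibre genes 5 were higher and none lower, among them *Fbln5* (fibulin 5), with a median difference of 3.57 in Pericytes 1 minus Pericytes 2 and the same sign in 29 of 29 mice. Of 15 pericyte genes 12 were lower in Pericytes 1 and 1, *Sod3*, was higher. *Pdgfrb* stood at 327 ± 96.6 CPM in Pericytes 1 and 1722 ± 638 CPM in Pericytes 2, lower in all 29 mice. *Rgs5* and *Notch3*, both common pericyte markers, differed by less than 1, with medians of -0.64 and -0.65.

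The soluble guanylate cyclase subunits, which make cyclic GMP in answer to nitric oxide, and the phosphodiesterase that breaks it down were all lower in Pericytes 1. *Gucy1a1* stood at 501 ± 159 CPM in Pericytes 1 and 3228 ± 1258 CPM in Pericytes 2. *Gucy1b1* differed by -2.94 and *Pde5a* by -3.47. The counts that follow stand beside 230 of all 2155 genes higher in Pericytes 1 by more than 1 and 289 lower. In every mouse, 209 of the 2155 were higher and 224 lower. Of 13 basement membrane genes 8 were lower, with *Col4a1*, a chain of type IV collagen, at 1033 ± 329 CPM in Pericytes 1 and 4552 ± 822 CPM in Pericytes 2, and 2 were higher in 29 of 29 mice, *Col18a1* (1.82) and *Lama5* (a laminin chain, 2.56). Of 21 immediate early and heat shock genes 14 were higher in Pericytes 1, such as *Fos* at 3486 ± 726 CPM in Pericytes 1 and 957 ± 363 CPM in Pericytes 2. Counts per cell describe the same contrast in cells that clustering had already parted on these genes, and they were not tested. After thinning each cell to 2000 UMIs, which left 1283 Pericytes 1 and 784 Pericytes 2, the median Pericytes 1 cell held 68 contractile, 5 pericyte and 35 elastic fibre UMIs, and the median Pericytes 2 cell 16, 43 and 4. More contractile than pericyte UMIs were found in 1251 of 1283 Pericytes 1 (97.5%) and in 75 of 784 Pericytes 2 (9.57%). A UMI of *Pdgfrb* was found in 40.5% of Pericytes 1 and 93.8% of Pericytes 2, of *Sod3* in 25.4% of Pericytes 1 and 1.40% of Pericytes 2, of *Actc1* in 46.9% of Pericytes 1 and 0.510% of Pericytes 2 and of *Higd1b* in 5.53% of Pericytes 1 and 89.8% of Pericytes 2. Without thinning, at medians of 5307.5 and 3215 UMIs per cell, the shares were 63.4% and 95.4% for *Pdgfrb* and 57.5% and 1.56% for *Actc1*.

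The share of Pericytes 1 among all cells of a lung did not pass a test by oxygen or age. In normoxia their share of all cells had lowest, median and highest values over mice of 1.22%, 1.54% and 2.41% at P3, 2.13%, 3.05% and 3.80% at P7 and 1.31%, 1.80% and 2.57% at P14. In hyperoxia the same values were 1.30%, 1.96% and 2.76% at P3, 0.800%, 2.07% and 2.59% at P7 and 0.967%, 2.32% and 4.28% at P14. The groups overlapped at every age. At P7 the mean was 2.95% ± 0.604 (SD, n = 6) in normoxia and 1.90% ± 0.717 in hyperoxia, a difference that did not pass after adjustment over the 34 types and 3 ages (two-sided exact permutation test, p = 0.0238, adjusted p = 0.101). The adjusted p was 0.591 at P3 and 0.483 at P14 by the same exact test. The 2 pools of hyperoxic P14 mice differed, with means of 1.56% and 3.72%, while those of normoxic P14 mice had 1.85% and 1.90%. With age in normoxia, the means of 1.69%, 2.95% and 1.87% at P3, P7 and P14 also missed the threshold (exact test, adjusted p = 0.0502 for the first interval and 0.0552 for the later one). As a share of stromal cells, the mean was 4.48% at P3 and 7.83% at P7 in normoxia. That difference of 3.36 percentage points passed (exact permutation test, adjusted p = 0.00974). The adjustment here was over the 6 stromal types and 3 intervals, and that for shares of all cells over 34 types and 3 intervals. The effect of oxygen itself differed by -1.34 percentage points between P7 and P3 and by 1.81 between P14 and P7 (permutation test, adjusted p = 0.132 and 0.136). Shares are of dissociated cells, so a change in their number and in their release from the tissue cannot be told apart.

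The balance of both types shifted, by a measure added after the data were seen. Its p was adjusted over the 3 ages alone, and that for shares of all cells over 34 types and 3 ages. Pericytes 1 made up, as lowest, median and highest share of both pericyte types, 47.5%, 58.2% and 65.3% in normoxia and 63.6%, 65.7% and 100.0% in hyperoxia at P7, and 41.0%, 48.5% and 58.2% against 57.9%, 60.8% and 76.9% at P14. Means rose from 57.7% to 72.2% at P7 and from 49.4% to 65.3% at P14 (two-sided exact permutation test, adjusted over the 3 ages, p = 0.00974 for both). At P3 the means were 61.8% and 64.3% (exact test, adjusted p = 0.818). The highest value at P7, 100%, is the mouse with 1 pericyte in all. Over mice with at least 10 cells of each type, the P3 means were 41.7% in 3 normoxic and 62.2% in 5 hyperoxic mice. That difference of 20.4 points did not pass (adjusted exact p = 0.0893). These normoxic mice came from 1 pool, within which the difference was 13.0 points (labels permuted within the pool, adjusted exact p = 0.3). Over all P3 mice, that pool had 34.1% to 46.7% in normoxia and 44.3% to 61.1% in hyperoxia. The other pool, with 1 to 6 Pericytes 2 in its normoxic mice, had 75.0% to 91.7% and 72.6% to 75.0%. Over mice with at least 10 cells of each type the difference at P7 fell to 7.02 percentage points (adjusted exact p = 0.0643), or 7.81 points within pools, which passed (labels permuted within pools, adjusted exact p = 0.0375), and that at P14 stood at 17.2 (adjusted exact p = 0.0195). Pericytes 2 themselves made up, of all cells at P7, 2.26% in normoxia and 0.916% in hyperoxia (adjusted exact p = 0.0245; by edgeR on cell counts, adjusted p = 0.0567), and at P14 1.92% and 1.26% (adjusted exact p = 0.118; edgeR, adjusted p = 0.361).

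**Figure D2:**
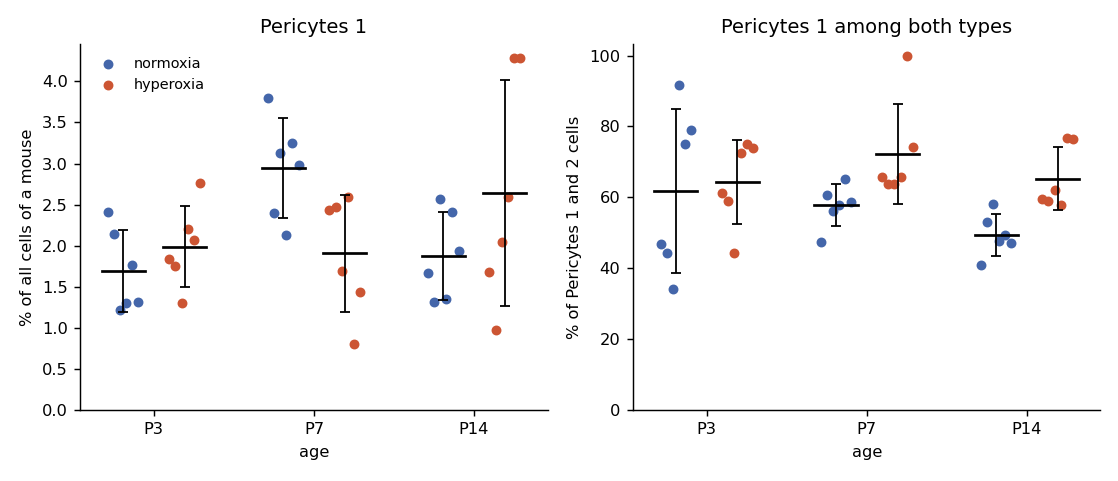
Left, Pericytes 1 as a percentage of all cells of a mouse; right, Pericytes 1 as a percentage of Pericytes 1 and 2 together, by age and oxygen. Each point is 1 mouse (6 per group), the bar is the mean and the whisker the SD; on the right, hyperoxic mice lie above most normoxic mice at P7 and P14, and the point at 100% at P7 is the mouse with 1 pericyte.

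More genes of Pericytes 1 differed between P14 and the younger ages than with oxygen. In normoxia, 1722 of 4571 genes tested differed between P14 and P3 (854 higher and 868 lower at P14; 37.7% of genes tested, 18.7% higher and 19% lower; edgeR's quasi-likelihood test, Benjamini-Hochberg adjusted p below 0.05, and a UMI in at least 10% of cells of a group). P14 against P7 gave 1289 (28.2%) and P7 against P3 86 (1.88%, 1.27% higher and 0.613% lower), or 11 with the pool of a mouse as a term. Depth moved as well: median UMIs per cell of a normoxic mouse ran from 2933 to 9289 at P3 (up to 3637.5 in 1 pool and from 7372 in the other), from 6349 to 7709 at P7 and from 3222 to 3971 at P14, and its part in these counts was not tested. Ages were processed in separate pools at P14, so age and pool cannot be told apart there. The genes with the largest increases were *Plin4* (perilipin 4), *Col8a1* (a short-chain collagen), *Hlf* (a circadian transcription factor, log2 fold change 4.75 ± 0.46 (SE)), *Itih4* (4.12 ± 0.40) and *Sorl1* (3.69 ± 0.60), all with adjusted p of 7.20e-05 or less in edgeR. *Plin4* had 1 UMI over the P3 mice and 100 over the P14 mice, a ratio of P3 to P14 of 0.0104 with a 95% counting interval of 0.000262 to 0.0595, and *Col8a1* had 1 and 65 UMIs (0.0161, interval 0.000401 to 0.0927). *Itih4* had lowest, median and highest values of 5.17, 12.5 and 43.1 CPM at P3, 21.4, 68.5 and 113 at P7 and 195, 287 and 463 at P14, and every P14 mouse lay above every younger one.

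Cell cycle genes fell. All 22 cell cycle genes tested were lower at P14 than at P3, against 19% of all genes lower, with a median log2 fold change of -4.30 (-4.27 with genes at 0 set to the limit of 3 UMIs) against -0.009 over all genes. *Mki67*, the antigen Ki-67 of cycling cells, fell from 105, 179 and 373 CPM (lowest, median, highest) at P3 to 0, 10.3 and 26.5 at P14 (-4.26 ± 0.62, adjusted p = 7.41e-07 by edgeR), and its groups did not overlap. Of the 5 largest decreases, *Cdca3*, *Hmmr*, *Pbk* and *Ube2c* are genes of mitosis, and *Clca3a2* belongs to the calcium-activated chloride channel regulators. *Cdca3* had 111 UMIs over the P3 mice and 0 over the P14 mice, at least 38.6-fold higher at P3 when 3 UMIs over the group are taken as the limit; *Clca3a2* was at least 26.4-fold, *Hmmr* at least 29.6-fold and *Pbk* at least 26.4-fold higher. *Ube2c* had 1 UMI at P14, a ratio of 225 with a 95% counting interval of 40.0 to 8947. At P7 2 of 22 members, *Cdk1* and *Mcm3*, were lower than at P3, where 0.613% of all genes were lower and the calls in either direction numbered 86, or 11 with the pool as a term. *Mki67* at P7 stood at 21.1, 90.2 and 259.9 CPM. In hyperoxia *Mki67* at P14 was at 0, 9.54 and 26.6 CPM, overlapping the normoxic mice over nearly the whole range. The sum over the 25 cell cycle genes did not overlap there: it was 452 ± 68.6 CPM (SD, n = 6) in normoxia and 999 ± 261 in hyperoxia at P14, with a median log2 fold change of 0.87 over the 22 members tested, of which 2 were higher, *Ccnd1* and *Ccnd2*, where 6.39% of all genes were higher. *Ccnd2* alone went from 182 ± 32.1 to 627 ± 178 CPM, the larger part of the difference between the sums. At P3 the sums were 4288 ± 1141 CPM in normoxia and 2516 ± 814 in hyperoxia.

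Most contractile genes rose. Of 23 contractile genes tested, 14 were higher at P14 than at P3 and 1, *Csrp2*, was lower, against 18.7% of genes higher and 19% lower among all genes, with a median of 0.71. Of the 8 markers of visceral and airway muscle, *Actc1*, *Actg2*, *Des* and *Cnn1* are also on the contractile list, and 0 were absent. These shared genes had means of 786, 1081, 473 and 424 CPM over 35 mice, so the sum largely counts contractile genes again. The sum of the 8 was 1246, 1498 and 2495 CPM at P3, 2243, 2440.2 and 3141 at P7 and 2393, 3347 and 4384 at P14. The part of such muscle in the result was not tested. *Myh11* had 379, 761 and 1102 CPM at P3, 839, 1001 and 1189 at P7 and 1265, 2097 and 3216 at P14 (1.60 ± 0.20, edgeR adjusted p = 6.13e-08). Each P14 mouse lay above each P3 mouse. *Actc1* had 133, 149 and 171 CPM at P3, a narrow range, and 359.5, 636 and 1178 at P7, so that it had risen by P7 (P7 against P3, 2.31 ± 0.36, adjusted p = 1.89e-04; P14 against P3, 2.94 ± 0.37, adjusted p = 4.51e-08; edgeR). *Cnn1* rose by 1.01 and *Lmod1* (leiomodin, an actin nucleator of smooth muscle) by 1.22. *Acta2* itself did not pass the test, with 6427, 7868 and 12485 CPM at P3 and 7574, 10616 and 11496 at P14 (0.17 ± 0.13, adjusted p = 0.300 by edgeR).

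Promoters of contractile genes are known for the CArG box, the site read by serum response factor, so the windows of 250 bases before to 50 after the RefSeq start (GRCm38.p6) were searched for it; its pattern reads the same on both strands. It was found in 3 of 19 contractile genes with a window (*Actc1*, *Myl9*, the regulatory light chain, and *Vcl*, vinculin), against 488 of 27025 genes (1.81%). Of the 12 members with a window that rose or fell between P3 and P14, 1 held it. A match is a description of letters and was not tested as a site. *Actc1* (minus strand, chr2:114052826-114053125), the member with the strongest identity contrast and rise, and *Myl9* (plus strand, chr2:156775214-156775513) are shown 5′ to 3′ with the box in capitals; it begins 47 bases before the start in *Actc1* and 161 before it in *Myl9*.
Actc1: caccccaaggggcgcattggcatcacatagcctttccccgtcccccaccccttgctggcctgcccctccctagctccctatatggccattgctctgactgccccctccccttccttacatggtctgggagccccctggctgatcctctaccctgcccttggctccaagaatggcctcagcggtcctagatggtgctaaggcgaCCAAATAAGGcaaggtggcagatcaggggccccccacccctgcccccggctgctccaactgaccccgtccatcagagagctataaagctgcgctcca
Myl9: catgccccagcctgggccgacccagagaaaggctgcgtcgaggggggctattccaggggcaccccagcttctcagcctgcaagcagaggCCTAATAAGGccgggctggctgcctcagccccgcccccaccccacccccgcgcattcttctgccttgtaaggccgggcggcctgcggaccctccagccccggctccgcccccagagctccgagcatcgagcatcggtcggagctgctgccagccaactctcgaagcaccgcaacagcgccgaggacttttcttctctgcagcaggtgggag

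Several signalling genes rose over the same interval, in which 18.7% of all genes were higher and 19% lower. Of 8 genes for vascular receptors and calcium handling, 6 were higher at P14 than at P3: *Ednra* and *Ednrb* (endothelin receptors), *Cacna1c* (the L-type calcium channel), *Ryr2*, *Itpr1* and *Ramp1*. *Cacna1c* had 35.6, 66.0 and 76.7 CPM at P3 and 162, 202 and 340.0 at P14 (1.74 ± 0.21, edgeR adjusted p = 1.31e-08), without overlap. Of 7 genes of nitric oxide and cyclic nucleotide signalling 5 were higher and none lower, among them *Adcy5* (1.72 ± 0.28) and *Gucy1a1* (0.75 ± 0.15). Of 13 pericyte genes 5 were higher (*Pdgfrb*, *Sod3*, *Notch3*, *Mcam*, *Pdzd2*) and 3 lower (*Higd1b*, *Ndufa4l2*, *Cox4i2*). *Sod3* went from 38.2, 55.9 and 72.4 CPM at P3 over 85.4, 143 and 217 at P7 to 216, 254 and 318 at P14 (2.14 ± 0.29, adjusted p = 1.65e-07 by edgeR), again without overlap between P3 and P14. *Pdgfrb* rose by 0.57. *Angpt1*, the ligand of the endothelial receptor Tie2, rose from 0, 18.1 and 52.5 to 73.7, 116 and 149.6 CPM (2.05 ± 0.40, adjusted p = 6.90e-05 by edgeR).

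Of the matrix lists, that of the basement membrane had the largest share of higher genes, beside 18.7% higher and 19% lower among all genes. Of 13 basement membrane genes 8 were higher at P14 and none lower, with *Col18a1* (the precursor of endostatin) at 15.5, 32.6 and 48.3 CPM at P3 and 149.6, 237 and 369.6 at P14 (3.03 ± 0.34, edgeR adjusted p = 4.30e-09). Of 22 fibrillar collagen and matricellular genes 11 were higher and 3 (*Fn1*, *Ctgf*, *Bgn*) lower. Of 15 elastic fibre genes tested *Eln* and *Ltbp4* were higher, and the 6 genes *Fbn2*, *Fbln1*, *Fbln2*, *Fbln5*, *Mfap2* and *Loxl1*, for microfibrils, fibulins and a cross-linking oxidase, were lower. *Eln* went from 8944, 13492 and 21748 CPM at P3 to 18536, 21261 and 24661 at P7 and 14704, 19817 and 27873 at P14 (0.48 ± 0.16, adjusted p = 0.0142 by edgeR for P14 against P3), and the P3 and P14 ranges overlapped. *Fbln5* stood at 215, 622 and 1271 and 430.1, 695 and 885 CPM at P3 and P7 and at 54.4, 125 and 175 CPM at P14 (-2.44 ± 0.38, adjusted p = 3.13e-06 by edgeR), every P14 mouse lying below every younger one. Of 10 imprinted growth genes 6 were lower at P14 and 1 (*Sgce*) higher: *H19*, a non-coding RNA of fetal and neonatal tissue, went from 187, 532 and 855 CPM at P3 to 0, 0 and 13.3 at P14 (-6.38 ± 0.54, adjusted p = 5.19e-12 by edgeR). The epithelial marker *Scgb1a1* was among the genes lower at P14 (-2.60 ± 0.61), with 602, 622 and 29299.5 CPM at P3 through 1 mouse; its part in the other differences was not tested.

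**Figure D3:**
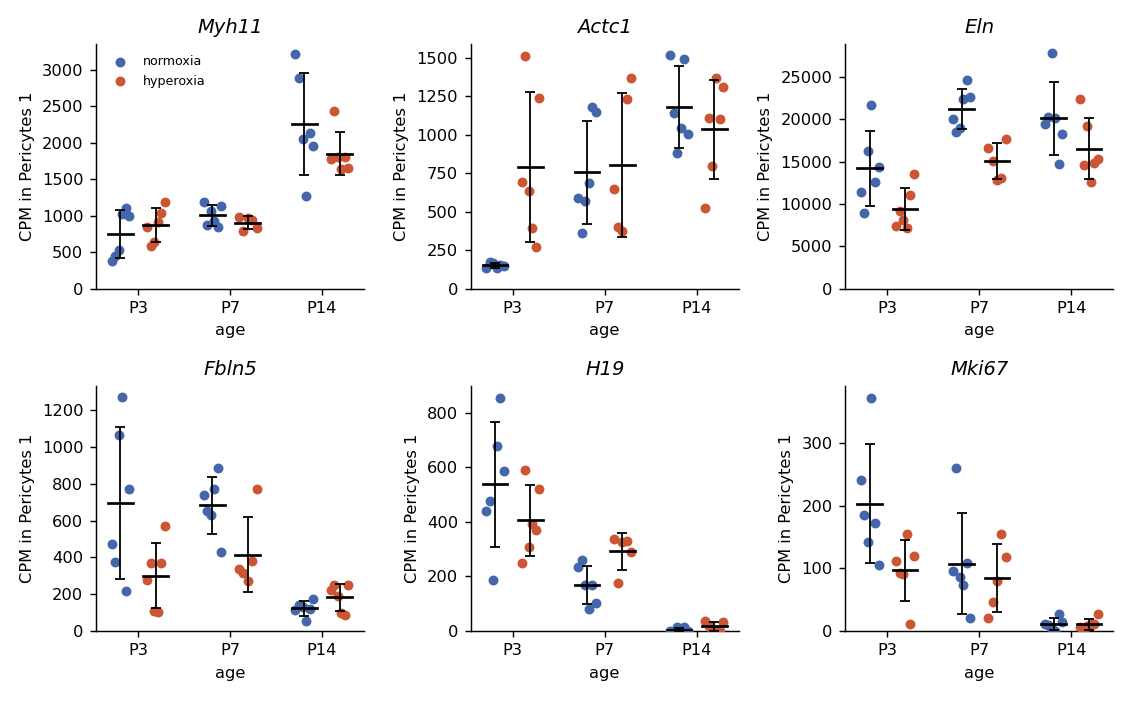
Level of 6 genes per mouse in Pericytes 1 (CPM, linear axes from 0) by age, in normoxia and hyperoxia; points are mice (6 per group, 5 for hyperoxic P7), bars the mean and whiskers the SD, cut at 0. *Myh11* and *Actc1* climb with age, *Eln* is higher from P7 on in normoxia, *Fbln5* falls after P7, *H19* falls with age in normoxia, and *Mki67* is near 0 at P14; for *Actc1* the hyperoxic P3 mice already stand above all normoxic P3 mice.

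Hyperoxia changed 304 of 4026 genes over all ages (161 higher and 143 lower; 7.55% of genes tested, 4% higher and 3.55% lower; edgeR with age as covariate, 18 normoxic and 17 hyperoxic mice, with the same threshold). The largest increases were those of *Cdkn1a* (the cell cycle inhibitor p21), *Timp1* (an inhibitor of matrix metalloproteinases), *Phlda3* (an inhibitor of Akt), *Tslp* (thymic stromal lymphopoietin, a cytokine), *Col8a1*, *Ccng1* (cyclin G1), *Icam1* (an adhesion molecule for leukocytes) and *S100a4*. The largest decreases were those of *Pcolce2* (an enhancer of procollagen processing), *Hlf*, *Gas1* (a growth arrest gene and Hedgehog co-receptor), *Txnip* (an inhibitor of thioredoxin and glucose uptake), *Gigyf1*, *Samd5*, *Nampt* (of NAD synthesis) and *Pdzd2*. For the 8 increases, log2 fold changes ran from 1.41 to 2.00 with adjusted p of 0.00936 or less, and for the 8 decreases from -0.84 to -1.56 with adjusted p of 0.0178 or less by edgeR.

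Most of the p53 targets tested rose, and the list as a set was not tested. Of 10 tested, 8 were higher in hyperoxia and none lower, where 4% of all genes were higher; the median was 0.97 against -0.012 over all genes. *Cdkn1a*, on chr17:29090976-29100727 (plus strand, GRCm38), had 61.5, 90.4 and 182 CPM in normoxic mice and 95.4, 353 and 840.5 in hyperoxic mice (lowest, median and highest; 2.00 ± 0.24, adjusted p = 8.85e-08 by edgeR). At P14 the groups were apart, with 63.2, 80.3 and 179.8 CPM against 326, 426 and 659, while 1 of the 5 hyperoxic P7 mice lay within the range of the normoxic P7 mice: the 5 values were 254, 629.5, 757, 95.4 and 134 CPM. *Phlda3* had 0, 26.8 and 81.9 CPM in normoxia and 34.3, 121 and 242 in hyperoxia (1.87 ± 0.22, adjusted p = 1.12e-07 by edgeR), again apart at P14 (0, 20.1 and 36.8 against 101, 152 and 187 CPM). *Bax*, which permeabilises mitochondria in apoptosis, had 96.8, 139.5 and 219.9 and 114, 295 and 391 CPM (0.99 ± 0.12, adjusted p = 8.85e-08 by edgeR), with overlap also at P14. *Rps27l* rose by 0.85, *Ccng1* by 1.56, and *Aen*, *Mdm2* (the ligase that degrades p53) and *Gdf15* passed as well.

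The same promoter windows were searched for the p53 half-site, a pattern of 10 bases that reads the same on both strands; p53 binds pairs of it. It was found in 6 of the 8 changed targets (12 windows, since some genes have several starts), in 7 of 19 listed targets with a window, and in 2582 of 27025 genes (9.55%). Most genes of the list were put on it because p53 is known to bind near them, so the match is no independent evidence. *Cdkn1a* (plus strand, chr17:29090729-29091028) held it in 2 places, 73 and 51 bases before the start of the window's transcript, *Bax* (minus strand, chr7:45466849-45467148) in 1 place and *Ccng1* (minus strand, chr11:40755237-40755536) in 1. These 3 targets are shown 5′ to 3′ with the half-sites in capitals.
Cdkn1a: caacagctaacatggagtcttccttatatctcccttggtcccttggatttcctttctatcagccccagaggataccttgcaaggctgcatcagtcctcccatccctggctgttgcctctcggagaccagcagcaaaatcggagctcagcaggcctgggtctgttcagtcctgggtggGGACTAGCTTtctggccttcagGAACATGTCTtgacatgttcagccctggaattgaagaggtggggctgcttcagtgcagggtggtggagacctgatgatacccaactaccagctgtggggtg
Bax: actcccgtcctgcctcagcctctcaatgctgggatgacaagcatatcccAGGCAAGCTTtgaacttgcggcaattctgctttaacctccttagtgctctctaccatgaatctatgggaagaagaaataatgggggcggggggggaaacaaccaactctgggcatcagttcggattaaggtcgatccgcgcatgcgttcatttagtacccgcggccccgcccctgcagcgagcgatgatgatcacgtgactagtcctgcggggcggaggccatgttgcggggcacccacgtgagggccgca
Ccng1: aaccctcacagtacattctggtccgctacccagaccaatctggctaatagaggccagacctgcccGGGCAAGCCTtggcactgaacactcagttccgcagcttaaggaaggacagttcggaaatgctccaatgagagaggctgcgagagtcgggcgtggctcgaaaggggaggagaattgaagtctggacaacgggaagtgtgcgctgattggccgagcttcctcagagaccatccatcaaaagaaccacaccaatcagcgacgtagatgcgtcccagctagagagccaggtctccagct

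Of 16 inflammatory genes tested, 7 were higher and none lower, where 4% of all genes were higher and 3.55% lower: the chemokines *Cxcl1* and *Cxcl2*, *Il6*, *Icam1*, the feedback inhibitor *Nfkbia*, the complement gene *C4b* and the transcription factor *Cebpb*. *Cxcl1* had 58.7, 264 and 1368 CPM in normoxia and 206, 572 and 2723 in hyperoxia (1.26 ± 0.27, adjusted p = 0.00251 by edgeR). Its values overlapped widely, and it also fell with age in normoxia, from 201, 766 and 1368 CPM at P3 to 58.7, 121 and 364 at P14. *Il6* was apart at P14, at 0, 3.37 and 52.6 CPM in normoxia and 55.6, 74.4 and 114 in hyperoxia (2.54 ± 0.68, adjusted p = 0.0107 by edgeR). Of 9 interferon and antigen presentation genes 5 were higher (*Irf1*, *Stat3*, *Ifi27*, *Ifitm2*, *Ifitm3*) and none lower; *Ifitm3*, which restricts viral entry, had 495, 683 and 1008 and 866, 1216 and 1513 CPM (0.77 ± 0.085, adjusted p = 3.03e-08 by edgeR). The 8 immune markers summed to a median of 190.5 CPM in normoxia and 183 in hyperoxia. None of the 9 NRF2 targets tested passed (median -0.046), and of 18 antioxidant and metal-binding genes 3 did, *Gpx1* (glutathione peroxidase, 0.41 ± 0.10), *Prdx5* and *Ftl1*, all upwards.

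Matrix genes changed in both directions, beside 4% higher and 3.55% lower among all genes. Of 22 fibrillar collagen and matricellular genes 7 were higher (*Col5a2*, *Col6a3*, *Col8a1*, *Tnc*, *Fn1*, *Thbs1*, *Timp1*) and 1, *Thbs2*, lower. *Timp1*, on chrX:20870166-20874735 (plus strand), had 6.74, 22.2 and 66.9 CPM in normoxia and 18.5, 56.8 and 337 in hyperoxia (1.89 ± 0.31, adjusted p = 6.30e-05 by edgeR). The hyperoxic P7 mice had 62.2, 337, 109, 32.6 and 56.8 CPM, 1 of them far above the rest. *Thbs1* (thrombospondin 1, which activates TGF-beta) had 320.3, 469.9 and 1033 and 501, 916 and 1870.2 CPM (0.99 ± 0.14, adjusted p = 5.82e-06 by edgeR). *Tnc* (tenascin C) rose at P14, from 46.4, 85.4 and 100.0 to 114, 311 and 786 CPM (2.21 ± 0.36, adjusted p = 5.13e-05 by edgeR), without overlap, and did not pass at P3 or P7 (adjusted p of 0.689 or more in edgeR). Of 13 basement membrane genes 3 were higher, *Col4a1*, *Col4a2* and *Col18a1*; *Col18a1* at P14 stood at 149.6, 237 and 369.6 CPM in normoxia and 537, 624 and 749 in hyperoxia (1.28 ± 0.21, adjusted p = 6.44e-05 by edgeR). Changed genes of TGF-beta and BMP signalling included the ligand genes *Tgfb2* and *Tgfb3*, which were higher, and *Ltbp2*, which was lower.

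Elastin fell. Over all ages *Eln* had 8944, 19227 and 27873 CPM in normoxia and 7187, 13503 and 22403 in hyperoxia (-0.45 ± 0.092, adjusted p = 0.00155 by edgeR). It was lower in hyperoxia at each age without passing within one: -0.57 at P3, -0.49 at P7 and -0.29 at P14. At P7 the groups did not overlap, with 18536, 21261 and 24661 CPM in normoxia and 16629.9, 15049.8, 12848, 13126 and 17638 CPM in the 5 hyperoxic mice. *Ltbp4*, which guides elastin onto microfibrils, also fell (-0.31 ± 0.10), while the cross-linking enzyme *Loxl2* rose (0.44 ± 0.11), of 14 elastic fibre genes tested, where 4% of all genes were higher and 3.55% lower.

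Of 22 contractile genes tested, 5 were higher by small amounts (*Acta2*, *Tagln*, *Tpm1*, *Actg2*, *Ppp1r14a*) and none lower, where 4% of all genes were higher, with a median of 0.18. The visceral and airway muscle markers summed to 1246, 1498 and 2495 CPM in normoxia and 2824, 2977 and 3959.7 in hyperoxia at P3, without overlap, and to 2393, 3347 and 4384 and 2763, 4086 and 4482 CPM at P14, and their part in the result was not tested. This sum again counts *Actg2*, which is among the 5 higher genes, and *Actc1*, given below. *Acta2* had 6427, 10189.6 and 12590.2 CPM in normoxia and 9005, 11966 and 15611 in hyperoxia (0.29 ± 0.078, adjusted p = 0.0171 by edgeR), and the ranges overlapped over most of their length. *Tagln* (transgelin) had 4894, 6439.9 and 8948 and 6133, 8222 and 10796 CPM (0.32 ± 0.07, adjusted p = 0.00252 by edgeR). *Actc1* differed at P3, with 133, 149 and 171 CPM in normoxia and 271, 665 and 1515 in hyperoxia (2.39 ± 0.37, adjusted p = 4.00e-04 by edgeR), and every hyperoxic P3 mouse lay above every normoxic one. At P7 and P14 its log2 fold changes were 0.094 ± 0.32 and -0.18 ± 0.31, and the difference between P14 and P3 passed (-2.58 ± 0.48, adjusted p = 0.00202 by edgeR).

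Between 1 and 3 genes changed in each list of vascular signalling and pericyte genes, beside 7.55% of all genes. *Gucy1a1* had 267, 538 and 1037 CPM in normoxia and 240.1, 449.7 and 706 in hyperoxia (-0.36 ± 0.091, adjusted p = 0.0101 by edgeR), the 1 changed gene of 7 in nitric oxide and cyclic nucleotide signalling. *Notch3*, the Notch receptor of mural cells, had 225, 343 and 558 and 185, 283 and 401 CPM (-0.30 ± 0.09), and *Heyl*, a Notch target, fell by 0.52 on the log2 scale, the 2 changed genes of 9 in that pathway. Of 13 pericyte genes *Rgs5*, *Notch3* and *Pdzd2* fell and none rose. *Pdgfrb* (-0.28 ± 0.10, adjusted p = 0.0869), *Cspg4* (0.52 ± 0.18, adjusted p = 0.0671) and *Sod3* (-0.22 ± 0.15, adjusted p = 0.427) did not pass over all ages in edgeR. *Ednra* was lower (-0.46 ± 0.14) and *F2r*, the thrombin receptor, higher (0.47 ± 0.13), of 7 genes for vascular receptors and calcium handling. *Flt1*, a VEGF receptor, was the 1 changed gene of 9 in PDGF, angiopoietin and VEGF signalling (0.89 ± 0.23), while the endothelial markers did not reach the level for testing in these cells.

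**Figure D4:**
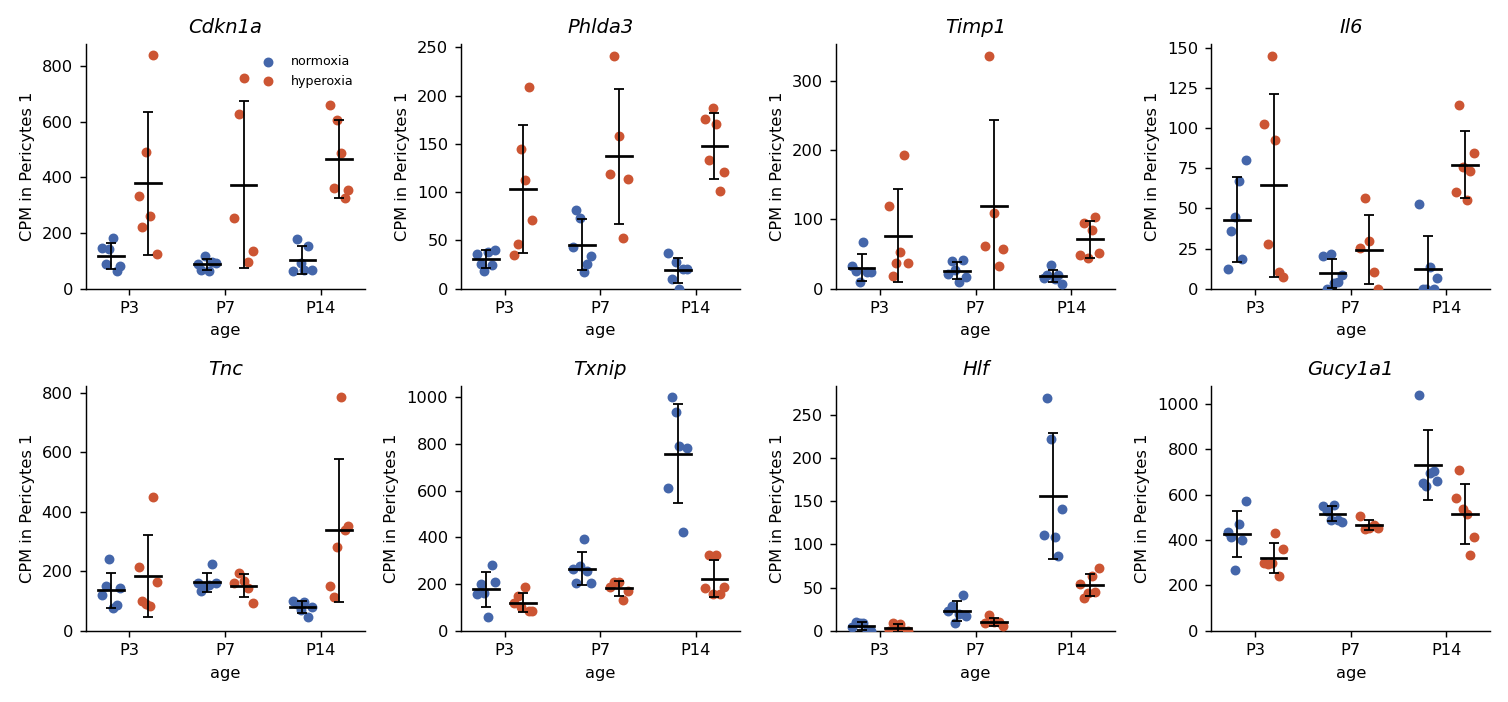
Level of 8 genes per mouse in Pericytes 1 (CPM, linear axes from 0) by age and oxygen; points are mice, bars the mean and whiskers the SD, cut at 0. *Cdkn1a*, *Phlda3*, *Timp1* and *Il6* stand higher in hyperoxia, most clearly at P14, *Tnc* rises at P14, and *Txnip*, *Hlf* and *Gucy1a1* rise with age in normoxia and stand lower in hyperoxia at P14.

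Within ages, 20 of 4571 genes changed at P3 (0.438%), 25 at P7 (0.547%) and 582 at P14 (292 higher and 290 lower; 12.7%, 6.39% higher and 6.34% lower) by the same edgeR fit; at an unadjusted p below 0.05 the counts were 487, 378 and 1237. Median UMIs per cell also differed at P14, with 3222, 3791 and 3971 in normoxia (lowest, median and highest mouse) against 4956, 5775 and 7321 in hyperoxia (two-sided exact permutation test, adjusted p = 0.00649), without overlap. With the hyperoxic P14 sums thinned to the mean UMIs per cell of the normoxic ones, 460 genes changed at P14. With the pool of a mouse as a term, the counts were 360 over all ages, 39 at P3 and 653 at P14, and with 10 cells per mouse they were 24, 0 and 68, the 0 at P3 beside 125 genes at an unadjusted p below 0.05 in edgeR. Members of the p53 list passed at each age, 3 of 11 at P3, 5 of them at P7 and 6 of them at P14. The hyperoxic P7 group had 5 mice, and its count was 6 without the second of them, 13 without the third and 39 without the sixth. At P3 the epithelial marker *Scgb1a1* was among the 4 lower genes (0.0875% of those tested), through the normoxic mouse named above, and at P7 the globin gene *Hbb-bs* was among the 9 lower ones (-4.06 ± 0.91), where the red cell markers summed to 21.4 to 6042 CPM in normoxia and 19.8 to 299.7 CPM in hyperoxia; their part in the other calls was not tested.

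Counts by list at P14 stand beside 6.39% higher and 6.34% lower among all genes. Of 19 TGF-beta and BMP genes 5 were lower (*Tgfbr2*, *Tgfbr3*, *Id2*, *Id4*, *Inhba*) and 1, *Tgfb2*, higher; of 9 PDGF, angiopoietin and VEGF genes 3 were lower (*Angpt1*, *Angptl4*, *Nrp1*) and 2 higher (*Pdgfa*, *Flt1*); of 13 basement membrane genes 3 were higher (*Col4a1*, *Col4a2*, *Col18a1*) and 2 lower (*Lama2*, *Lama4*); and of 12 hypoxia targets 4 were higher (*Ldha*, *Tpi1*, *Ndufa4l2*, *Mif*) and none lower. Of 13 pericyte genes 3 were higher (*Cspg4*, *Ndufa4l2*, *Postn*) and 2 lower (*Notch3*, *Pdzd2*). Of 23 contractile genes 1, *Sncg*, was higher, and of 22 fibrillar collagen and matricellular genes 6 were higher and 1 lower. At P14 the largest increases were those of *S100a4*, *Phlda3*, *Il6*, *Cd109* (a TGF-beta co-receptor) and *Olfr78* (an olfactory-type receptor), and the largest decreases those of *Gas1*, *Pcolce2*, *Kit*, *Txnip* and *Cdkn1c* (the imprinted cell cycle inhibitor p57). *S100a4* had 5.26, 26.0 and 33.2 CPM in normoxia and 84.7, 198 and 324 in hyperoxia (3.00 ± 0.47, adjusted p = 2.35e-05 by edgeR), apart from each other. *Txnip* had 424, 785 and 999 and 159, 185 and 324 CPM (-1.84 ± 0.22, adjusted p = 3.29e-07 by edgeR). The hyperoxic P14 mice lay near the younger normoxic mice, which had 57.4, 181 and 283 CPM at P3 and 202, 259.6 and 394 at P7. *Cspg4* was higher at P14, with 47.2, 79.0 and 153 CPM against 176, 275 and 305 (1.43 ± 0.27, adjusted p = 3.28e-04 by edgeR), without overlap. *Angpt1* stood at 73.7, 116 and 149.6 CPM in normoxia and 23.9, 34.1 and 59.3 in hyperoxia (-1.51 ± 0.34, adjusted p = 0.00225 by edgeR), apart as well. *Ccnd2*, a D-type cyclin, had 137, 176 and 232 and 429.8, 589 and 847 CPM (1.74 ± 0.19, adjusted p = 5.49e-08 by edgeR); with *Ccnd1* it was 1 of 2 changed genes of 22 in the cell cycle list at P14.

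Several genes that rose with age in normoxia were lower in hyperoxia at P14. Those given here are examples. How many of the 854 genes higher with age were lower or higher in hyperoxia at P14 was not counted. Among all genes 6.34% were lower and 6.39% higher. The comparisons share the normoxic P14 mice, so that they are set side by side and not related: *Txnip* changed by 2.02 with age and -1.84 with hyperoxia, *Hlf* by 4.75 and -1.51, *Angpt1* by 2.05 and -1.51, *Ednra* by 0.89 and -1.02, *Gucy1a1* by 0.75 and -0.57, *Cacna1c* by 1.74 and -0.70, and *Apoe* (apolipoprotein E) by 2.59 and -1.19. *Col18a1* went the other way, by 3.03 with age and 1.28 with hyperoxia. *Sod3* and *Myh11* were higher with age (2.14 and 1.60) and did not pass for hyperoxia at P14 (-0.23 ± 0.22 and -0.30 ± 0.19).

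A total of 126 of 4571 genes responded to hyperoxia differently at P14 than at P3 (65 with the higher value at P14 and 61 with the lower; 2.76%, 1.42% higher and 1.33% lower). The largest towards P14 were *S100a4* (3.18 ± 0.67), *Lmnb1* (lamin B1), *Hsd17b12*, *Cib1* and *Sh3gl1*, and the largest the other way *Fabp4* (a fatty acid binding protein), *Actc1*, *Apoe* (-2.41 ± 0.32), *Zcchc24* and *Tshz2*. *Apoe* is an example of reversal: it stood at 287, 375 and 475 CPM in normoxia and 462, 618 and 1974 in hyperoxia at P3 (1.22 ± 0.24, adjusted p = 0.00595 by edgeR), and at 1927, 2209 and 3209 and 756, 977 and 1469 CPM at P14 (-1.19 ± 0.22, adjusted p = 2.49e-04 by edgeR). The groups overlapped at P3 and were apart at P14. No p53 target was among the 126, which at 2.76% of all genes says little for so short a list. The genes *Ccnd2*, *Ldha* and *Tpi1* (both of glycolysis) and the imprinted gene *Peg3* were among them. *Peg3* had 79.9, 137 and 231 CPM in normoxia and 0, 42.3 and 62.9 in hyperoxia at P14, while *H19* had 0, 0 and 13.3 and 0, 11.5 and 36.3 CPM there.

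Pericytes 2 responded to the same exposure with more changed genes, 1345 of 3658 (36.8%), against 304 of 4026 (7.55%) in Pericytes 1, from 29 and 35 mice. Pools were not balanced over oxygen in the 29 mice: at P3 the 3 normoxic ones came from 1 pool and the 5 hyperoxic ones from both. The fit of Pericytes 2 had no term for the pool, and that between types none for type by pool. The part of the pool was not tested. Depth moved with oxygen in Pericytes 2 as well: the median UMIs per cell of a mouse at P14 ran from 2317 to 2969.5 in normoxia and from 6255 to 9228 in hyperoxia, without overlap and farther apart than in Pericytes 1, and its part in the counts was not tested. The difference itself was tested in the 29 mice with both types, in a fit with the mouse as block, and passed for 451 of 6128 genes (232 with the higher value in Pericytes 1 and 219 with the lower; 7.36%). Of these, 329 were tested in both types, and the absolute effect was larger in Pericytes 2 in 307 of the 329 and of opposite sign in 133. The 329 were chosen for a difference between types, and their effects come from separate fits of 29 and 35 mice. The same counts over all genes tested in both types were not made, so no share stands beside 307 and 133. Of 18 p53 targets tested, 8 had the lower effect in Pericytes 1 and none the higher one (3.57% and 3.79% of all genes), with a median difference of -0.99. *Cdkn1a* in Pericytes 2 had 0, 26.3 and 77.9 CPM in normoxia and 344, 1083 and 1788 in hyperoxia, without overlap and from a lower base than in Pericytes 1 (5.01 ± 0.21 against 2.00 ± 0.24; difference -3.10 ± 0.32, adjusted p = 1.29e-09 by edgeR). Differences for *Ccng1* (-1.63 ± 0.35), *Phlda3* (-1.04 ± 0.28) and *Bax* (-0.76 ± 0.15) had the same sign.

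Of 23 contractile genes 5 had the lower effect in Pericytes 1 (*Acta2*, *Tagln*, *Lmod1*, *Tpm1*, *Csrp1*) and 1, *Ppp1r14a*, the higher one, where 3.57% of all genes had the lower and 3.79% the higher effect, with a median difference of -0.10 against 0.024 over all genes. *Acta2* had 17.9, 818 and 2645 CPM in normoxic and 629.9, 2074 and 2917 in hyperoxic mice in Pericytes 2, and its rise there exceeded that in Pericytes 1 (difference -1.44 ± 0.32, adjusted p = 0.00180 by edgeR). For *Tagln* the difference was -1.27 ± 0.22. Of 23 matricellular and fibrillar collagen genes 9 had the lower effect in Pericytes 1 and 1 the higher, against the same 3.57% and 3.79% of all genes, among them *Tnc* (-1.78 ± 0.40), *Thbs1* (-1.68 ± 0.23) and *Fn1* (-0.86 ± 0.19). *Eln* fell in Pericytes 1 (-0.45 ± 0.092) and rose in Pericytes 2 (0.77 ± 0.30, adjusted p = 0.0386), a difference of -1.09 ± 0.31 (adjusted p = 0.0205 by edgeR); in Pericytes 2 its level was 69.1, 163 and 1386 CPM in normoxia and 52.2, 214 and 1219 in hyperoxia, far under that of Pericytes 1. *Gucy1a1* fell by more in Pericytes 2 (difference 0.81 ± 0.14, adjusted p = 9.29e-05 by edgeR). *Pdgfrb* (0.36 ± 0.15, adjusted p = 0.142) and *Cspg4* (0.066 ± 0.20, adjusted p = 0.907) did not differ past the threshold in edgeR.

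The largest differences by the naming rule were towards Pericytes 1 for *Gap43* (3.60 ± 0.69), *Nmnat2*, *Edn3* (endothelin 3), *Plcb4* (a phospholipase C) and *Tcf7*, and towards Pericytes 2 for *Sulf2* (an extracellular sulfatase, -4.89 ± 0.46), *Col5a3*, *Col18a1* (-3.34 ± 0.32), *Adora1* and *Col15a1*. These rest mostly on Pericytes 2. *Gap43* there went from 212, 500.0 and 701 CPM to 69.5, 188 and 297, and in Pericytes 1 its median was 0 at both oxygen levels. *Sulf2* in Pericytes 2 had 0, 0 and 16.1 CPM in normoxia and 11.9, 79.6 and 160.3 in hyperoxia, against 6.15, 25.6 and 80.0 and 9.06, 45.0 and 82.7 CPM in Pericytes 1. Genes near 0 in a type give differences that depend on the prior count of the fit. Of 22 immediate early and heat shock genes 10 had the lower effect in Pericytes 1, where 3.57% of all genes did, such as *Egr1*, which fell in Pericytes 1 (-0.30 ± 0.063) and rose in Pericytes 2 (0.48 ± 0.15; difference -0.81 ± 0.17, adjusted p = 0.00115 by edgeR).

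**Figure D5:**
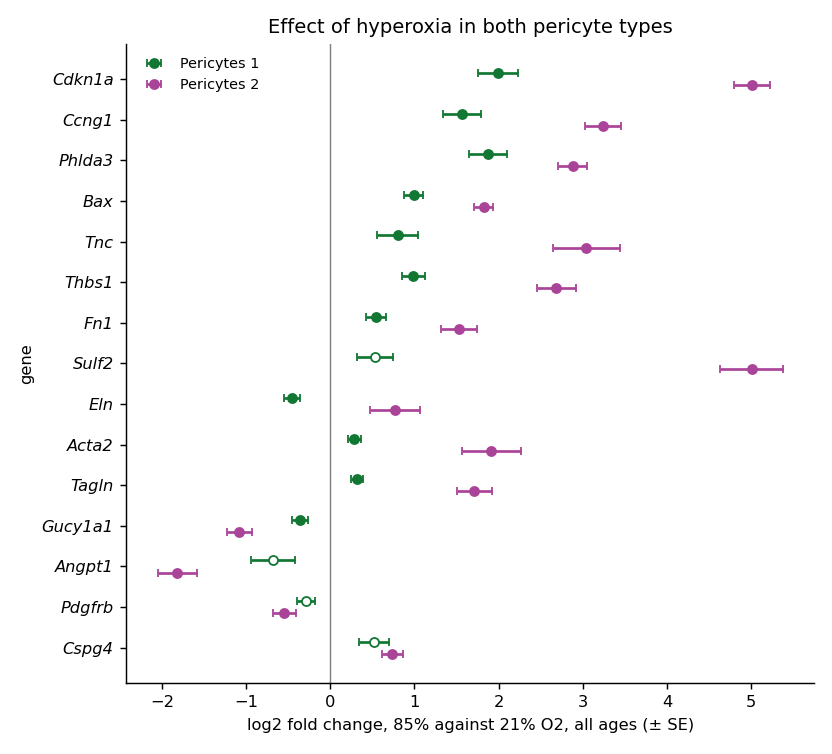
Log2 fold change of hyperoxia against normoxia over all ages (horizontal axis, ± SE) for 15 genes in Pericytes 1 and Pericytes 2, each from the fit of its own type; filled points passed the threshold and open points did not, and a type in which a gene was not tested has no point. For *Cdkn1a*, *Ccng1*, *Phlda3*, *Bax*, *Tnc*, *Thbs1*, *Fn1*, *Sulf2*, *Acta2* and *Tagln* the Pericytes 2 point lies farther to the right, and for *Eln* the points lie on opposite sides of 0.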

How the data were processed

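Whole lungs of mouse pups were profiled by single-cell RNA sequencing (10x 3′ v3), with the mice of a library told apart by MULTI-seq sample barcodes. Per the labels and the study's methods, the authors aligned reads with Cell Ranger 3.0.2 to mm10, assigned cells to mice, removed cells with several sample barcodes and clusters judged to be contaminants, and named the cell types. They deposited raw UMI counts per gene and cell, counts of sample barcodes, and an annotation with the age, oxygen level, cell type and percentage of mitochondrial UMIs of each cell. The labels give libraries, and the mouse and group of a cell were taken from that deposited annotation; no doublet caller was run. No value column went unmapped.

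Here, UMI counts of Pericytes 1 were summed per mouse (at least 10 cells; 35 of 36 mice, 52402 to 561649 UMIs) and tested with edgeR 4.0.16 (TMM, filterByExpr, quasi-likelihood test) in R 4.3.3. A gene was called changed where its Benjamini-Hochberg adjusted p lay under 0.05 and 10% or more of the cells in a compared group held a UMI of it. Hyperoxia over all ages had age as covariate; effects within an age came from 1 model with 6 group means. The difference between types used the mouse as block. The SE of a log2 fold change is its absolute value divided by the square root of edgeR's F statistic. For genes near 0 in a group the fold change, and with it this SE, depends on the prior count of the fit. CPM are deposited counts scaled to 1000000 per mouse, given as lowest, median and highest over mice unless said otherwise. Intervals and floors cover counting error only. Shares were compared by two-sided exact permutation tests over 6 against 6 mice, which cannot give a p below 0.00216. Differences between ages in the effect of oxygen on the share used 100000 resamples. The scripts of the fits over all ages and between types were tested on simulated data. Alternatives were DESeq2 1.42.0, the pool as a term, all genes without a low-count filter, other minimum numbers of cells, 10 cells per mouse, and leaving out mice. The pool, which held 3 mice of each oxygen level at each age in it (1 pool held both P3 and P7 mice), and the mouse were the blocks used.

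The cell type and the 27 gene lists were chosen with earlier results of these data known. Named were the markers and genes the study names for pericytes, the 8 largest changes in each direction over all ages and the 5 largest in 4 further comparisons (changed genes, average log2 CPM 5 or more), up to 4 changed members of each list by adjusted p over all ages (the 2 with the highest level where none changed), and for the identity contrast the 10 largest differences in each direction and the pericyte and contractile lists. Other genes were chosen after their values were seen. Predicted, mitochondrial and ribosomal protein genes were counted and not named, and 1 further gene is not reported here. Positions are from GENCODE on GRCm38, promoter windows from RefSeq on GRCm38.p6.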

Additional observations from a re-analysis of the deposited data

Results flagged for a closer look

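In groups of 4 to 6 mice, 9 of 90 groups examined held a mouse far from the others by Dixon's test at its 95% level, where chance marks about 1 group in 20. For the share of Pericytes 1 among both pericyte types this was the hyperoxic P7 mouse at 100%, which had 1 pericyte in all. Among genes, single mice stood high in CPM for *Acta2* at 12590.2 in normoxic P7 mice (median 10189.5), for *Gucy1a1* at 1036.9 in normoxic P14 mice (median 677) and at 503 in hyperoxic P7 mice (median 455), for *Myh11* at 2443 in hyperoxic P14 mice (median 1790.0) and for *Timp1* at 337 in hyperoxic P7 mice (median 62.2). *Tnc* was high in 1 mouse each at 786 CPM in hyperoxic P14 mice (median 311), at 449 in hyperoxic P3 mice (median 133) and at 226 in normoxic P7 mice (median 157).

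By the edgeR interaction test, 126 genes responded to hyperoxia differently at P14 than at P3. The differences (P14 minus P3, log2) were 3.18 for *S100a4*, 2.69 for *Lmnb1*, 2.55 for *Hsd17b12*, 2.03 for *Cib1* and 1.92 for *Sh3gl1*, and -2.59 for *Fabp4*, -2.58 for *Actc1*, -2.41 for *Apoe*, -2.17 for *Zcchc24* and -2.12 for *Tshz2*, with adjusted p of 0.0417 or less by edgeR. With 10 cells per mouse 3 genes passed. Of these 10 genes, 2 missed the threshold with the pool as a replicate block (*Sh3gl1*, *Lmnb1*) and 5 over mice with at least 25 cells (*Tshz2*, *S100a4*, *Cib1*, *Sh3gl1*, *Lmnb1*), with the direction kept. The effect differed between Pericytes 1 and Pericytes 2 in 451 genes. These differences (Pericytes 1 minus Pericytes 2, log2) were 3.60 for *Gap43*, 2.38 for *Nmnat2*, 2.36 for *Edn3*, 2.21 for *Plcb4* and 2.18 for *Tcf7*, and -4.89 for *Sulf2*, -3.80 for *Col5a3*, -3.34 for *Col18a1*, -3.31 for *Adora1* and -3.11 for *Col15a1*, with adjusted p of 0.0296 or less by edgeR. *Edn3* missed the threshold when the first, the third, the fourth or the fifth hyperoxic P14 mouse was left out, over mice with at least 25 cells and without the mouse as block, *Col5a3* without the mouse as block, *Col15a1* in DESeq2, and *Col15a1*, *Col5a3* and *Gap43* with 10 cells per mouse.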

How the results depend on the processing

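Counts of changed genes in Pericytes 1 and of the difference between types lay within 1.5 times of the values reported under the alternatives run, except for those below; no alternative was run for the count of Pericytes 2. With 10 cells drawn per mouse, which left far fewer UMIs and genes to test, they were 24 over all ages, 0 at P3 (edgeR, with 125 of 1642 genes at an unadjusted p below 0.05), 1 at P7, 68 at P14, 3 for the difference between P14 and P3, 2 for P7 against P3, 207 for P14 against P7 and 490 for P14 against P3 in normoxia, and 136 for the difference between types. Without the age covariate, 95 genes changed over all ages. At P3, DESeq2 gave 31. Without a filter on low counts, 142 genes changed at P3, 81 at P7 and 216 for P7 against P3 in normoxia. At P7, 46 changed over mice with at least 25 cells, and 6 to 39 when 1 hyperoxic P7 mouse was left out (6 without the second, 39 without the sixth). With the pool as a replicate block the counts were 39 at P3 and 11 for P7 against P3, and the block moved no other count by over 1.5 times (360 over all ages, 653 at P14, 175 for the difference between P14 and P3). The cause of these shifts was not tested except where the alternative itself leaves fewer genes or samples. Similar counts did not always mean the same genes. Over mice with at least 25 cells, 64 of the 126 genes with an oxygen effect differing between P14 and P3 were called again. So were 9 of 20 at P3, 37 of 86 for P7 against P3 in normoxia and 256 of 451 between types. Without the filter on low counts, the 361 genes called over all ages held 221 of the 304.

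Among values of named genes that passed, 569 kept direction and threshold and 81 lost the threshold over all ages; at P14 143 and 5 did, for the difference between P14 and P3 90 and 11, for that between types 760 and 61, and for P14 against P3 in normoxia 373 and 15, where 1 reversed, *Scgb1a1*, to 0.59 with 10 cells per mouse. Part of these values could hardly change, since dropping the detection criterion cannot lose a call. Leaving out hyperoxic P7 mice reaches comparisons without that group only through the shared fit. With 10 cells per mouse, 2 named genes kept the threshold at P14 and 4 lost it. Losses over all ages included 28 with 10 cells per mouse and 25 without the age covariate. They also included 9 without the second hyperoxic P7 mouse and 1 with the pool as a block. For shares, P7 against P3 in normoxia as a percentage of stromal cells was higher by 3.36 percentage points and passed (adjusted exact permutation p = 0.00974). In hyperoxia that difference turned positive, at 1.19 points of stromal cells and at 0.137 points of all cells without the mouse with the fewest cells, and passed in neither. The share of both pericyte types at P7 differed by 7.02 points over mice with at least 10 cells of both (adjusted exact p = 0.0643; a measure and alternative chosen after seeing the data); within pools it was 7.81 points and passed (adjusted exact p = 0.0375). With 1 to 83 cells per mouse, genes under the count filter could not be tested.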
